A study of Mus musculus with 12 samples.

Results

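The Myc family and Max network is a set of transcription factor genes, and 10 of its members were examined among the 39179 genes of the deposited table: the activators Myc, Mycn and Mycl, the shared partner Max, and the antagonists Mxd1, Mxi1, Mxd3, Mxd4, Mnt and Mga. The members were taken by gene symbol from the Ensembl identifiers in the table, without regard to their values, and all 10 were found. The tissue was prostate from mice aged 4 months, of a hybrid 129/SvImJ and C57Bl/6J strain, treated with paraquat, a redox-cycling herbicide that produces superoxide. One group of 6 libraries was wild type for the gene under study and the other group of 6 was homozygous null for it, and both groups received paraquat, so no comparison with untreated tissue was made here. The labels state no dose, time after treatment or number of animals.

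Proteins of the network share a basic helix-loop-helix leucine zipper and bind DNA as pairs. Myc, Mycn or Mycl paired with Max bind the E-box sequence and raise transcription of genes for ribosome production, metabolism and growth, while Mxd proteins, Mxi1, Mnt and Mga compete for Max and recruit repressors to the same sequence. In the prostate, gain of Myc is a known feature of cancer, and Mycl and Mycn are known from tumours with neuroendocrine features.

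The E-box sequence that the network binds also occurs in promoters of some of its own members, and those stretches are shown as a description. RefSeq promoters of GRCm38.p6, covering 250 bases before to 50 bases after a gene's start, matched 9 of the 10 members with 11 promoters; Myc had no entry. Promoters were searched for CACGTG, which reads alike on both strands, and for the related hexamer CACGCG on either strand (CGCGTG on the other); one 6-letter stretch cannot hold both. CACGTG was present in promoters of 3 members, Max, Mnt and Mxd4, and in 7.15% of 32851 promoters of the same length (2187 of 27025 genes). The related hexamer was present in promoters of 2 members, Mycl and Mga, and in 9.27% of promoters (2835 of 27025 genes). Another hexamer, CATGTG, was searched for on both strands and was found in 1 of the 3 promoters of Mxi1, 123 bases upstream of its start, and in 14.2% of promoters. Matches to the first pair of motifs are in capitals below, each sequence is read 5′ to 3′ on the gene's own strand, and a match is a description of letters, not of binding.
Max, minus strand, chr12:76962199-76962298: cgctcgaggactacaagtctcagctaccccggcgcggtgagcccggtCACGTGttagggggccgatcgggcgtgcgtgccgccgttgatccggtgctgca
Mnt, plus strand, chr11:74830754-74830853: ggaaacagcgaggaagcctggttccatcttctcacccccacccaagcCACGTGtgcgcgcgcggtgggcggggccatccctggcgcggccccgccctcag
Mxd4, minus strand, chr5:34187877-34187960: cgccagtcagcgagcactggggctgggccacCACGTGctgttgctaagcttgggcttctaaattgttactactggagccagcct
Mycl, plus strand, chr4:122995864-122995963: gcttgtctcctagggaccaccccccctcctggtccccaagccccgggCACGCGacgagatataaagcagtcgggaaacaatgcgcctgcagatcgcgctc
Mga, plus strand, chr2:119897160-119897259: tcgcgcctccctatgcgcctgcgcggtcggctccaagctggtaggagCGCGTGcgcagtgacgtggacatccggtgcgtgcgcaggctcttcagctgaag
Counted from the RefSeq transcription start that each promoter is built on, the first base of the hexamer lay 3 bases upstream for Max, 123 for Mnt, 219 for Mxd4, 20 for Mycl and 21 for Mga. The gene bounds printed with each member below are instead the outermost ends in GENCODE and need not begin at that RefSeq start; the Mycl hexamer, for example, lies inside the GENCODE bounds of Mycl.

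Values are the deposited normalized log2 values, 1 per gene and library, and differences are null minus wild type on that scale. The depth estimated from the values was 14.8 to 21.7 M reads per library, with medians of 17.3 M in wild type and 17.9 M in the null. Within each genotype the libraries formed 2 closely similar sets, libraries 1 to 3 and libraries 4 to 6. The labels do not say whether libraries of a set came from separate animals, so p-values measure the spread between these libraries, which may be partly technical. Each comparison was therefore made over the 12 libraries (limma, 6 per genotype) and again over the 4 means of the sets (limma, 2 per genotype). A gene is called where the Benjamini-Hochberg adjusted p was under 0.05 over the 12 libraries, and the words rose and fell are kept for genes that also passed over the set means. Prostate secretory markers were present in every library, at a summed log2 level of 20.6 to 21.1 in wild type and 17.5 to 17.6 in the null (7 of 8 listed genes in the table). Seminal vesicle markers, 8 of 8 in the table, had a sum of 5.87 to 7.85 across wild type, but of 21.4 in the first null set (libraries 1 to 3) and 16.8 to 16.9 in the second (libraries 4 to 6). Epididymis and vas deferens markers, 6 of 6 in the table, summed to 15.8 to 15.9 in null libraries 1 to 3 and to 5.71 to 7.85 in the other sets, with Lcn5, Lcn8 and Spag11a under 4 in every library. Other marker lists were also higher in every null library than in every wild-type library: the adipocyte list (4 of 4 genes) summed to 6.52 to 7.82 in wild type and 9.05 to 9.44 in the null, the endothelial list (5 of 5) to 9.73 to 10.1 and 10.7 to 11.3, and the basal list (6 of 6) to 12.3 to 12.5 and 13.0 to 13.2. The fibroblast, macrophage and B and plasma cell lists were likewise without overlap, and the part of any of these cells in the differences below was not tested. Fewer cells of a type and less RNA per cell cannot be told apart in these bulk samples.

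Calls in the network were mostly toward lower values in the null, with Mga as the exception. Of the 9 members that passed the filter on low values, 5 were called lower (Myc, Mycl, Mxd1, Mxi1 and Mxd4), 1 was called higher (Mga) and 3 were not called (Max, Mxd3 and Mnt). With the library set as a random block in limma the Mxd1 call was lost, and 5 members in all were called. The share of all genes called in that fit is not given here. Over all 16197 genes tested, 31.8% were called lower and 34.1% higher, 65.9% in all, so a call over the 12 libraries is common among genes at large. The libraries of the genotypes did not overlap, with the null lower, for 4 members and for 22.7% of genes tested, and did not overlap, with the null higher, for 1 member and for 21.5%. Over the set means limma called 0 members in either direction, against 1.93% of genes lower, 2.15% higher and 4.09% in all. There 4 members (Myc, Mycl, Mxi1 and Mga) had an unadjusted p under 0.05. The share of all genes under that unadjusted threshold is not given here, so the count cannot be read as a result about the members. The median difference was -0.37 for the members and 0.05 for all genes tested. When the libraries were scaled to their totals, the median of all genes moved to 0.37, the calls over all genes changed from 5518 higher and 5152 lower to 8611 higher and 2608 lower, and 2 members were called higher (Mga and Mnt) and 1 lower (Mycl). Scaling to library totals and upper-quartile centring move all genes alike, so a member's difference less the median of all genes is the same under both as with the deposited values.

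**Figure D1:**
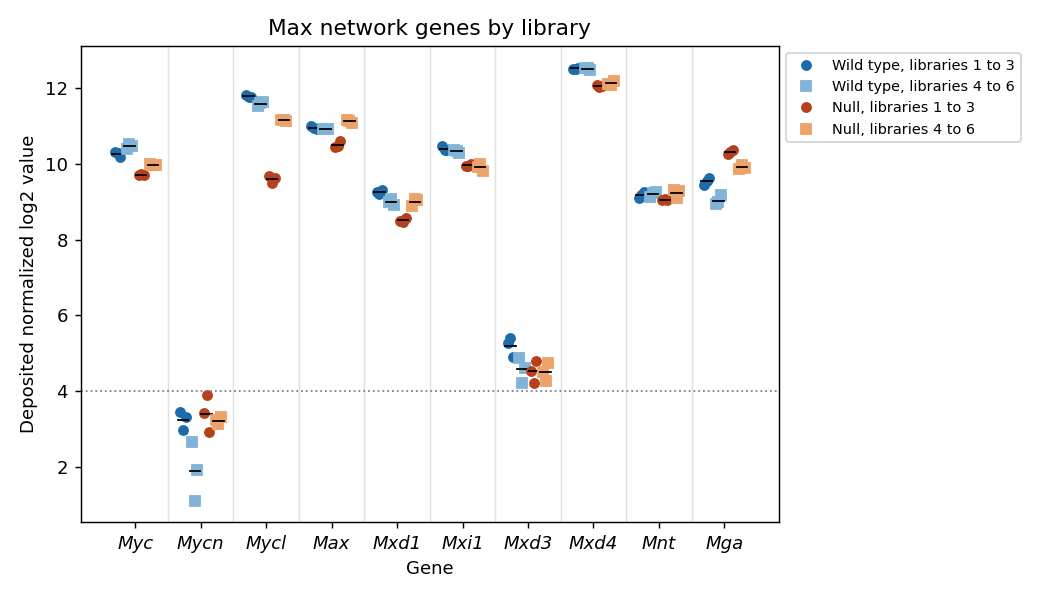
Deposited normalized log2 value (vertical axis) of the 10 members in each library, with circles for libraries 1 to 3 and squares for libraries 4 to 6 of each genotype, black bars for the mean of each set and a dotted line at the filter value of 4. Mycl averaged 9.60 in the first null set (libraries 1 to 3) and 11.15 in the second, while Mxd4 was at 12.05 and 12.12 there, below both wild-type sets.

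Mycl, which encodes L-Myc (ENSMUSG00000028654, GRCm38 chromosome 4, 122995652 to 123002485, plus strand), had the largest difference of the members tested. Its lowest, median and highest values were 11.52, 11.69 and 11.82 in wild type and 9.50, 10.41 and 11.16 in the null. The groups did not overlap, but the null libraries fell into a low set and a set close to wild type. The mean was 11.68 ± 0.12 for wild type against 10.38 ± 0.85 for the null (SD, n = 6 libraries each), a difference of -1.31 (SE 0.31, adjusted p = 0.00238 over the 12 libraries, and adjusted p = 0.133 over the set means). Set means were 11.78 and 11.58 in wild type for libraries 1 to 3 and 4 to 6, and 9.60 and 11.15 in the null. Without null libraries 1 to 3 the difference was -0.53 (adjusted p = 0.000171), and without null libraries 4 to 6 it was -2.08 (adjusted p = 1.55e-08). The low Mycl values stood in the null libraries with the highest seminal vesicle and epididymis marker levels, and the part of that RNA in the difference was not tested.

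Myc, which encodes c-Myc (ENSMUSG00000022346, chromosome 15, 61985391 to 61990374, plus strand), was lower in the null in a more even way. Its lowest, median and highest values were 10.19, 10.34 and 10.52 in wild type and 9.70, 9.85 and 10.00 in the null. Every null library lay below every wild-type library. The means were 10.36 ± 0.13 and 9.85 ± 0.15 (SD, n = 6 libraries each), a difference of -0.51 (SE 0.08, adjusted p = 0.000126 over the 12 libraries, and adjusted p = 0.147 over the set means). Libraries 4 to 6 were above libraries 1 to 3 by 0.20 in wild type and by 0.27 in the null, smaller gaps than the mean difference between genotypes. The closest set means of the genotypes, null libraries 4 to 6 and wild-type libraries 1 to 3, differed by -0.27, about the size of the null gap. With library totals the difference in Myc was -0.20 (adjusted p = 0.0582). Relative to the median of all genes, Myc was at -0.56 both there and as deposited, which is fixed because library totals shift all genes alike. On that measure Myc was at -0.38 with quantile normalization and -0.40 with the length trend removed. The 3 tested genes whose values over the 12 libraries were most like those of Myc by Pearson's r were Paip2 (0.997), Bcl7b (0.995) and Taz (0.994), given as a description, since all libraries share the 4-set structure.

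Mycn, which encodes N-Myc (ENSMUSG00000037169, chromosome 12, 12936093 to 12941914, minus strand), was near the floor of the table and did not pass the filter, which asked for 4 or higher in at least 6 libraries. Its lowest, median and highest values were 1.12, 2.81 and 3.45 in wild type and 2.91, 3.27 and 3.90 in the null. The genotypes overlapped, and the low values were those of wild-type libraries 4 to 6. Values of unexpressed genes in this table are unequal, with a median of 2.12 over genes below the filter, so no fold is given. Without the filter the adjusted p was 0.160. The neuroendocrine marker Insm1 was under 4 in every library, while the sum of the neuroendocrine list was 9.28 to 9.36 for null libraries 1 to 3 against 6.38 to 6.95 for the other sets.

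Per length, Mycl and Myc were of the same order, and the share between them shifted in 3 libraries. As linear values (2 raised to the log2 value) per kilobase of exon, the wild-type mean was 816 ± 65.1 for Mycl and 484 ± 42.4 for Myc (SD, n = 6), and the null mean was 378 ± 203 for Mycl and 340 ± 34.9 for Myc. Mycl made up 59.0% to 66.6% of the sum of both in the wild-type libraries. It made up 60.0% to 60.4% in null libraries 4 to 6, inside the wild-type range, and 36.3% to 39.9% in null libraries 1 to 3. Thus Myc was the higher of the pair per kilobase in 3 null libraries alone of the 12. No test was made of this share.

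**Figure D2:**
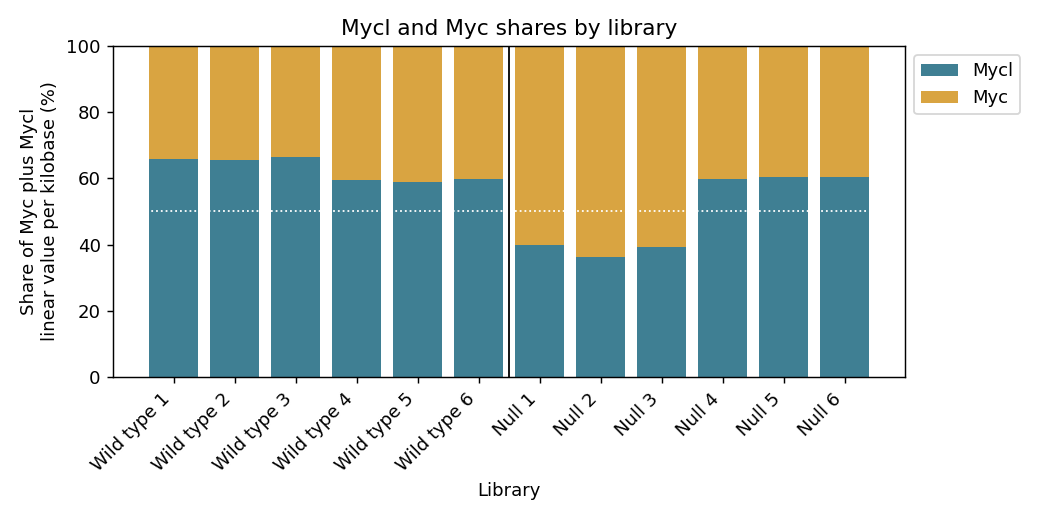
Share of Mycl (lower part of each bar) and Myc (upper part) in the sum of their linear values per kilobase of exon, in percent, for each of the 12 libraries. Mycl takes 59.0% to 66.6% in wild type, 60.0% to 60.4% in the second null set (libraries 4 to 6) and 36.3% to 39.9% in the first.

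Max, the partner with which these factors bind the E-box (ENSMUSG00000059436, chromosome 12, 76937269 to 76962201, minus strand), was even in wild type and split in the null. Its lowest, median and highest values were 10.91, 10.92 and 11.00 in wild type and 10.45, 10.85 and 11.15 in the null. All wild-type values lay between the null sets, which averaged 10.51 in libraries 1 to 3 and 11.12 in libraries 4 to 6. The means were 10.94 ± 0.03 and 10.82 ± 0.34 (SD, n = 6 libraries each), a difference of -0.12 that was not called (SE 0.13, adjusted p = 0.429 over the 12 libraries, and adjusted p = 0.756 over the set means). Against all wild-type libraries the difference was 0.19 with null libraries 4 to 6 alone (adjusted p = 0.00754) and -0.43 with null libraries 1 to 3 alone (adjusted p = 4.87e-05). The direction also turned with quantile normalization (0.04) and removal of the length trend (0.08), and relative to the median of all genes it ran from -0.17 to 0.07 over the scalings, so no direction is given for Max. The same null libraries 1 to 3 that were low in Mycl were low in Max.

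Among the antagonists, Mxd4 and Mxi1 had the smallest gaps between sets of a genotype relative to the difference between genotypes. Mxd4, a member of the Mxd repressor family (ENSMUSG00000037235, chromosome 5, 34173883 to 34187720, minus strand), had lowest, median and highest values of 12.48, 12.52 and 12.54 in wild type and 12.04, 12.07 and 12.17 in the null. The groups did not overlap, and the sets of a genotype differed by 0.01 in wild type and 0.07 in the null. The means were 12.51 ± 0.02 and 12.09 ± 0.05 (SD, n = 6 libraries each), a difference of -0.43 (SE 0.05, adjusted p = 7.59e-06 over the 12 libraries, and adjusted p = 0.205 over the set means). Over the set means limma draws the SE of a gene toward a trend over all genes, so that of Mxd4 was 0.21, larger than its own gaps between sets. The Mxd4 difference depended on scaling: it was -0.11 with library totals (adjusted p = 0.111), -0.13 with quantile normalization (adjusted p = 0.0620) and -0.65 with the length trend removed (adjusted p = 2.18e-06). Less the median of all genes, Mxd4 was at -0.48 as deposited and with library totals, which shift all genes alike. On that measure it was at -0.10 with quantile normalization and -0.66 with the length trend removed. The antisense gene Gm42846 overlaps 6.06% of the exon bases of Mxd4, and the sources used here do not give the strand setting of the counting.

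Mxi1, also known as Mxd2 (ENSMUSG00000025025, chromosome 19, 53310518 to 53375810, plus strand), had lowest, median and highest values of 10.29, 10.36 and 10.47 in wild type and 9.82, 9.94 and 10.01 in the null. The groups did not overlap, and sets of a genotype differed by 0.06 in wild type and 0.05 in the null. The means were 10.37 ± 0.06 and 9.94 ± 0.07 (SD, n = 6 libraries each), a difference of -0.43 (SE 0.05, adjusted p = 1.28e-05 over the 12 libraries, and adjusted p = 0.159 over the set means). The Mxi1 difference was -0.11 with library totals (adjusted p = 0.0979) and -0.71 with the length trend removed (adjusted p = 2.31e-07). With quantile normalization it was -0.33 (adjusted p = 0.000157). Less the median of all genes, Mxi1 was at -0.48 as deposited and with library totals, which shift all genes alike. On that measure it was at -0.30 with quantile normalization and -0.73 with the length trend removed. RefSeq lists 3 promoters for Mxi1, none with CACGTG, and the table gives 1 value per gene, so its isoforms could not be compared.

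Mxd1, known for its induction as cells differentiate (ENSMUSG00000001156, chromosome 6, 86647042 to 86669161, minus strand), had lowest, median and highest values of 8.92, 9.14 and 9.32 in wild type and 8.48, 8.74 and 9.07 in the null. Here the genotypes overlapped: libraries 4 to 6 averaged 9.003 in the null and 8.996 in wild type, and null libraries 1 to 3 averaged 8.52. The difference was -0.36 (SE 0.12, adjusted p = 0.0181 over the 12 libraries, and adjusted p = 0.338 over the set means). The Mxd1 call was lost with the library set as a random block (adjusted p = 0.172), without null libraries 1 to 3 (-0.12, adjusted p = 0.313) and without wild-type libraries 1 to 3 (-0.24, adjusted p = 0.188), and with library totals the difference was -0.05. Less the median of all genes, Mxd1 was at -0.42 as deposited and with library totals, which shift all genes alike.

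Mxd3, an Mxd gene linked to proliferating cells (ENSMUSG00000021485, chromosome 13, 55325168 to 55329823, minus strand), was low, with values of 4.23, 4.89 and 5.41 in wild type and 4.22, 4.53 and 4.80 in the null (lowest, median and highest). The genotypes overlapped and the difference of -0.37 was not called (SE 0.20, adjusted p = 0.124 over the 12 libraries, and adjusted p = 0.500 over the set means). It was called without wild-type replicate 5 (-0.50, adjusted p = 0.0306), without wild-type libraries 4 to 6 (-0.68, adjusted p = 0.0123) and with quantile normalization (-0.71, adjusted p = 0.00758). Of its exon bases, 4.43% overlap Prelid1 on the opposite strand, which was far more abundant, with means of 10.8 ± 0.29 for wild type and 9.84 ± 0.24 for the null (SD, n = 6 each), and reads of the shared bases cannot be told apart without strand. Cycling-cell markers, 8 of 8 above the filter, summed to 9.48 to 9.83 in wild type and 9.68 to 9.89 in the null.

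Mnt, an antagonist expressed in most tissues (ENSMUSG00000000282, chromosome 11, 74830920 to 74845725, plus strand), had lowest, median and highest values of 9.09, 9.20 and 9.26 in wild type and 9.04, 9.08 and 9.31 in the null. The genotypes overlapped, and the difference of -0.05 was not called (SE 0.07, adjusted p = 0.526 over the 12 libraries, and adjusted p = 0.874 over the set means). With library totals it was 0.27 (adjusted p = 0.00852) and with upper-quartile centring 0.03, but less the median of all genes it was -0.10 in both, as with the deposited values. With the length trend removed Mnt was called lower (-0.27, adjusted p = 0.0144). Over all scalings the difference of Mnt less that median ran from -0.28, with the length trend removed, to -0.0016, with quantile normalization. Without null libraries 1 to 3 the difference was 0.03, so no direction is given for Mnt.

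Mga, a large protein with a T-box as well as a Max-binding domain (ENSMUSG00000033943, chromosome 2, 119897228 to 119969581, plus strand), was the member called higher in the null. Its lowest, median and highest values were 8.94, 9.30 and 9.63 in wild type and 9.87, 10.11 and 10.37 in the null. The groups did not overlap, and in each genotype libraries 1 to 3 were above libraries 4 to 6, by 0.50 in wild type and 0.40 in the null. The means were 9.28 ± 0.29 and 10.11 ± 0.23 (SD, n = 6 libraries each), a difference of 0.83 (SE 0.14, adjusted p = 0.000208 over the 12 libraries, and adjusted p = 0.104 over the set means). With the length trend removed from each library the Mga difference was 0.10 and was not called (adjusted p = 0.0984). The longest annotated transcript of Mga has 13931 bases. Among 336 tested genes with a longest transcript of at least 10000 bases the median difference was 0.71 and 76.8% were called higher, against a median of 0.05 and 34.1% called higher over 16038 tested genes with an annotated length.

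**Figure D3:**
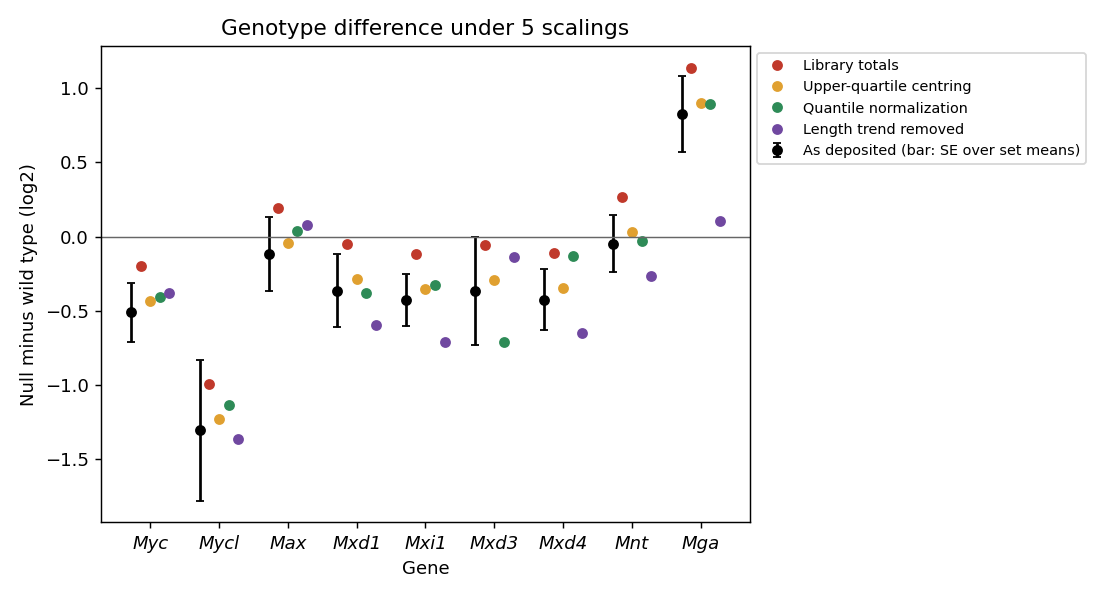
Null minus wild type difference (log2, vertical axis) for the 9 members tested, with the values as deposited in black (bar: SE over the set means) and 4 other scalings in colour. Mycl stays between -1.36 and -0.99 under these scalings, Mga ranges from 0.10 with the length trend removed to 1.14 with library totals, and Max and Mnt lie on both sides of 0; less the median of all genes under each scaling, Mnt runs from -0.28 to -0.0016.

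Levels of the members were compared per kilobase on the linear scale in wild type. With the exon length of a gene (all annotated exons joined), Mycl (816 ± 65.1, SD, n = 6) was followed by Mxd4 (689 ± 10.5), Max (544 ± 12.8) and Myc (484 ± 42.4). With the length of the longest transcript the order was Mxd4 (1263 ± 19.2), Max (1008 ± 23.7), Mycl (942 ± 75.1) and Myc (562 ± 49.2), so the order of Mxd4, Max and Mycl depends on which transcripts the tissue uses. By exon length the other members followed as Mxi1 (194 ± 7.96), Mnt (126 ± 5.83), Mxd1 (79.3 ± 8.45), Mga (41.3 ± 8.26) and Mxd3 (12.9 ± 3.69), with Mycn listed near the floor. By longest transcript Max and Mycl were within their spread of each other, and so were Mnt (127 ± 5.87) and Mxd1 (120 ± 12.8). By exon length in the null the order at the top was another. Max (513 ± 119) and Mxd4 (513 ± 18.2) came before Mycl (378 ± 203) and Myc (340 ± 34.9), and the spread of Mycl covered the means of Max, Mxd4 and Myc. Also by exon length in the null, Mga (72.6 ± 11.3) and Mxd1 (62.3 ± 11.9) were within their spread of each other.

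Genes that work with or downstream of the network were examined in lists, described by counts and medians only. The lists were chosen with earlier results of these data known, so their counts and medians are no test of Myc activity. Where a count of genes with an unadjusted p under 0.05 is given, the share of all genes at that threshold is not known here. Genes of growth and ribosome production that Myc is known to activate were mostly lower. The 12 libraries gave 39 called lower and 5 called higher out of 62 tested, against 31.8% and 34.1% of all genes, and the set means gave 2 and 1, with a median of -0.40 against 0.05 for all genes tested. Sord, encoding sorbitol dehydrogenase, fell from 12.58 ± 0.11 to 10.91 ± 0.12 (SD, n = 6 each), which is -1.67 (adjusted p of 0.0147 from the set means). Srm, encoding spermidine synthase, fell from 11.16 ± 0.32 to 9.63 ± 0.25, a difference of -1.53 (adjusted p = 0.0361). Hk2, encoding a hexokinase, went the other way and rose from 8.97 ± 0.20 to 10.14 ± 0.13, a difference of 1.16 (adjusted p = 0.0387). Exosc5, an exosome subunit gene, differed by -1.15, with an adjusted p of 0.0618 from the set means. With library totals the growth list had 22 called lower and 13 higher of 62, against 2608 lower and 8611 higher of all 16197 genes. Without null libraries 1 to 3, 25 of the list were called lower, and the count over all genes in that fit is not given here.

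Of 8 genes that Myc is known to repress, the 12 libraries gave 5 called higher and 0 lower (limma), against 34.1% and 31.8% of all genes. The set means gave 0 called, where 3 had an unadjusted p under 0.05, and the median difference was 0.40 against 0.05 for all genes. The cell cycle inhibitor genes Cdkn1a (0.08) and Cdkn2b (0.23) and the stress gene Gadd45a (-0.12) were not called; these are named after their values were seen. The transcription factor gene Cebpa averaged 7.49 ± 0.06 among wild-type and 8.54 ± 0.18 among null libraries (SD, n = 6 each), so that it differed by 1.05 (adjusted p of 0.0631 from the set means). Cebpa is known from adipocytes, among other cells, and the adipocyte markers given above were higher in the same libraries; their part in its difference was not tested. Gas1 (0.59), Ndrg2 (0.52) and the cell cycle inhibitor gene Cdkn1b (0.37) were also called higher over the 12 libraries, with adjusted p of 0.111 to 0.218 over the set means.

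**Figure D4:**
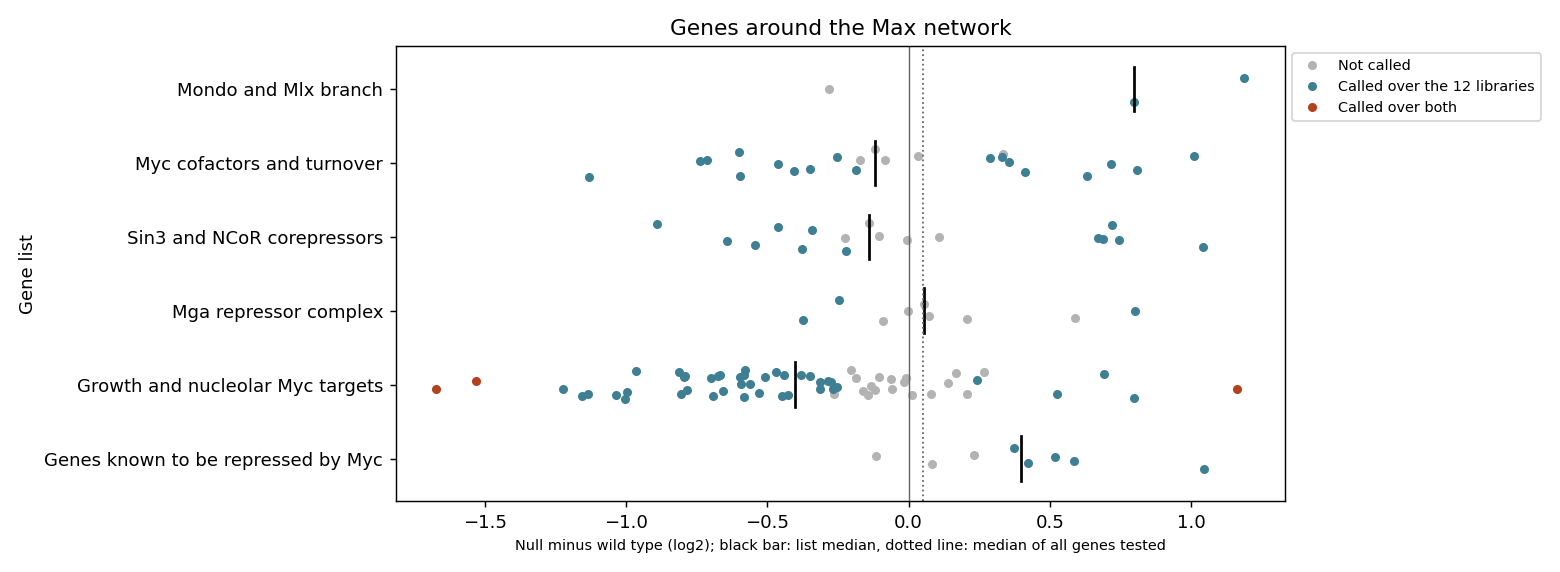
Null minus wild type difference (log2, horizontal axis) of each tested gene in the 6 lists around the network, with grey for genes not called, blue for genes called over the 12 libraries and red for genes called over the set means as well; vertical bars are list medians and the dotted line is the median of all genes tested. The growth list centres on -0.40 and the list of genes known to be repressed by Myc on 0.40.

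In the neighbouring branch, where Mlx takes the place of Max, 2 of 3 genes were called higher over the 12 libraries, against 34.1% of all genes, and 0 over the set means (limma, 2 with an unadjusted p under 0.05). Mlxip, encoding the glucose-responsive factor MondoA, averaged 9.70 ± 0.21 among wild-type and 10.50 ± 0.05 among null libraries (SD, n = 6 each), so that it differed by 0.80 (adjusted p of 0.0805 from the set means). Mlxipl, encoding its relative ChREBP, differed by 1.19 (adjusted p = 0.121 over the set means). Its genotypes overlapped, and its wild-type mean of 4.70 was near the filter value of 4. The null set means were 6.34 in libraries 1 to 3 and 5.43 in libraries 4 to 6. With the library set as a random block in limma, Mlxipl was not called (adjusted p = 0.236). Mlx differed by -0.28 and was not called (adjusted p = 0.0560 over the 12 libraries).

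Among 23 cofactors and regulators of Myc protein, 8 were called higher and 10 lower from the 12 libraries, against 34.1% and 31.8% of all genes, with none from the set means (limma, 8 with an unadjusted p under 0.05) and a median of -0.12. Pim3, a kinase gene, differed by -0.74 (adjusted p = 0.0845 over the set means). Skp2, encoding a ubiquitin ligase subunit that targets Myc, differed by 1.01 (adjusted p = 0.0990), and Ep400, a chromatin remodelling gene, by 0.41 (adjusted p = 0.170). As given for Mga, tested genes with a longest transcript of at least 10000 bases had a median difference of 0.71. The part of transcript length in the differences of this list, and of the corepressors below, was not tested.

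Among the Sin3 and NCoR corepressors, through which Mxd proteins and Mnt act, the 12 libraries gave 5 of 17 called higher and 7 called lower, shares near those of all genes (34.1% and 31.8%), and the set means gave 0 (limma, 8 with an unadjusted p under 0.05), with a median of -0.14. Arid4b (0.69) was higher and Ing2 (-0.89) and Sap18 (-0.54) lower, with adjusted p of 0.0971 to 0.150 over the set means. Of the 9 partners of Mga in its Polycomb-type repressor complex, the 12 libraries gave 1 called higher and 2 called lower, against 34.1% and 31.8% of all genes, and the set means gave 0 (limma, 1 with an unadjusted p under 0.05), with a median of 0.06. Tfdp1 differed by 0.80, Ring1 by -0.37 and Yaf2 by -0.25, with adjusted p of 0.145, 0.299 and 0.440 over the set means, and Rybp, at 0.59, was not called (adjusted p = 0.0748 over the 12 libraries).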

How the data were processed

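The labels' protocols describe poly-A selection, a TruSeq library kit and HiSeq2000 sequencing. Tools listed in the submitters' processing notes are DESeq, Cufflinks, TopHat and CASAVA 1.8.2, and the builds listed are GRCm38.p2 and mm9, without roles. The deposited table holds log2 values normalized between libraries by the authors; the sources used here do not give the transformation. Symbols and positions came from GENCODE on GRCm38 (37693 of 39179 identifiers). The 16197 genes that reached 4 in at least 6 libraries were tested, two-sided, by limma 3.58.1 (R 4.3.3) with a variance trend, since the values are not counts. The main fit used no further logarithm or pseudocount, and an alternative fit used log2 with 8 added on the linear scale. Low genes may differ by more or less than the deposited scale shows, which was not tested. Depth was estimated with Python 3.11.15 from values that, times 1 factor per library, were within 0.1 of a whole number. The limma fits were tested on simulated data in which the libraries were drawn independently, without library sets. That test cannot show how the fits behave with sets like those found here. Named genes are all members, from each list the 4 genes ranked first by limma p, and the 3 genes most like Myc. Members and lists were chosen with earlier results of these data known, and the library sets were found in the values, not the labels. The targeted gene and a few genes that the naming rule selects are not reported here.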

Additional observations from a re-analysis of the deposited data

Results flagged for a closer look

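Within the 6 wild-type libraries, Max had 1 library apart from the rest: library 1 was at 11.00 and the other 5 were between 10.91 and 10.93, so that the gap was 0.794 of the whole range. The flag marks any gap above a fixed share of the range, smaller than the gap found here. Chance alone passes that cutoff in about 1 in 20 groups of independent values, but these libraries form sets. All 10 members were screened in both genotypes, and the range itself was narrow.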

How the results depend on the processing

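Each result was recomputed under 27 alternatives. Over the set means 0 members were called higher and 0 lower, and 1 growth gene was called higher and 2 lower. With the library set as a random block, 2 growth genes were called higher and 25 lower, and Mxd1 was the member that lost its call (adjusted p = 0.172). With library totals, members called were 2 higher and 1 lower, and growth genes 13 higher and 22 lower, against 8611 higher and 2608 lower of all 16197 genes. With the length trend removed 0 members were called higher and 6 lower, Mnt among them, against 4761 higher and 5226 lower of 16038 genes. Without null libraries 1 to 3, 2 members were called higher and 25 growth genes lower, and without wild-type libraries 4 to 6, 24 growth genes were called lower. Counts over all genes are not given here for the random block or for fits that left libraries out. Leaving out 1 library at a time gave 1 member called higher and 5 to 6 lower, and 4 to 5 growth genes higher and 36 to 40 lower. Differences that turned were those of Max (0.20 with library totals, 0.041 with quantile normalization, 0.078 with the length trend removed, 0.19 without null libraries 1 to 3) and Mnt (0.27 with library totals, 0.028 with upper-quartile centring, 0.034 without null libraries 1 to 3). Library totals and upper-quartile centring shift all genes alike, and less the median of all genes the differences of Max (-0.17) and Mnt (-0.10) stay as with the deposited values; for the other turns the cause was not tested. Of 242 differences of single members under the alternatives, 214 kept direction and call. No paired analysis was possible because the labels give the libraries no numbers shared between genotypes. Depth limits Mycn and Mxd3 most, since both lie near the floor of the table.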
